A study of Mus musculus with 10 samples.

Results

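The haemoglobin genes of the fetal liver were examined late in gestation (E18.5, counted in days of embryonic development), in polyA libraries from the livers of 10 female mouse fetuses. The set was given as 8 genes by name. It holds the adult alpha globins Hba-a1 and Hba-a2, the adult beta globins Hbb-bs and Hbb-bt, the embryonic alpha-like Hba-x, the embryonic beta-like Hbb-bh1 and Hbb-y, and the alpha globin chaperone Ahsp. Of these, 7 matched a row among the 55401 genes of the count table, and Ahsp matched no identifier in the annotation used here and was not analysed here. The 5 Mir483Pat-KO fetuses had inherited from their father a constitutive deletion of the microRNA gene Mir483, present in every cell, and kept the maternal allele. The 5 wild-type (WT) fetuses were littermates. The deletion was made in C57BL/6N embryonic stem cells (JM8.F6), from which 2 clones were injected, and the colony was kept by crosses to C57BL/6J. The labels do not give litters, so p-values measure the spread between these fetuses.

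Haemoglobin is a tetramer of alpha-like and beta-like chains, each carrying heme. In the mouse, the embryonic chains are made mainly by primitive red cells from the yolk sac, and the adult chains by definitive red cells, for which the fetal liver is the main site of production. Hbb-bs and Hbb-bt are the adult beta genes of the haplotype that C57BL/6 mice carry. The alpha-like cluster lies on chromosome 11 and the beta-like cluster on chromosome 7. Mir483 is also on chromosome 7, 38.8 Mb from Hbb-bs (GRCm38).

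The 150 bases before the RefSeq start of the globin genes are shown because the adult genes moved together across libraries and because the stretches carry the boxes typical of globin promoters. Each is written 5′ to 3′ on the strand of the gene, from RefSeq (GRCm38.p6), with matches to short motifs in capitals. These were CACCC (the KLF box), then CCAAT (the box named for its letters), then GATAA (the GATA motif), and lastly ATATAA (part of the TATA box). Both strands were searched, so the reverse complement of CCAAT, read as ATTGG, is also in capitals. No motif overlapped another in these stretches.
Hba-a2 (chr11:32296342-32296491, + strand): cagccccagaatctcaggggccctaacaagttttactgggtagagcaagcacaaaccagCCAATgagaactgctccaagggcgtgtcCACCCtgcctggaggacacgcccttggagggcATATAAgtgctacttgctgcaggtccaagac
Hba-x (chr11:32276450-32276599, + strand): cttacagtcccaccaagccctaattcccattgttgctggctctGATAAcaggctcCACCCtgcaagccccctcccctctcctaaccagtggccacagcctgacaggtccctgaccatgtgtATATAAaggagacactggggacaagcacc
Hbb-bs (chr7:103827929-103828078, - strand): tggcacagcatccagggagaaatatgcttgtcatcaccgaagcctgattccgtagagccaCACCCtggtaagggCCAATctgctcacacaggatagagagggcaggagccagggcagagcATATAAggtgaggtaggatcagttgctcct
Hbb-bt (chr7:103813924-103814073, - strand): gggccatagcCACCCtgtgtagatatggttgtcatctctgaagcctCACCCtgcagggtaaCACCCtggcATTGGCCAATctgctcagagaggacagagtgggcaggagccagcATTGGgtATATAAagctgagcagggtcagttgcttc
Hbb-y (chr7:103853208-103853357, - strand): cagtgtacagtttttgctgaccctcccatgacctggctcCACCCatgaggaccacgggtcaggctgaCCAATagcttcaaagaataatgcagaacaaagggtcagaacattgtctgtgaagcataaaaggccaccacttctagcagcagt
The GENCODE models of these genes begin 3 to 200 bases before the RefSeq start, by 3 bases for Hba-a2, 200 for Hba-x, 168 for Hbb-bs, 73 for Hbb-bt and 9 for Hbb-y. The stretch of Hba-a1 is not printed, since its 250 bases before the start were identical to those of Hba-a2 over 247 bases, displaced by 3.

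All 6 stretches that could be read hold CACCC, a motif found in 37.4% of the 32817 promoter stretches of the same length. CCAAT was found in 5 of the 6 and in 24.5% of all promoters, and ATATAA in 5 of the 6 and in 5.4% of all. GATAA was found in Hba-x alone, against 13.4% of all promoters. The stretch of Hbb-bt holds 3 matches to CACCC and 3 to CCAAT, and that of Hbb-bs holds 1 of each. The stretches of Hbb-bs and Hbb-bt were identical at 110 of 148 aligned bases (74.3%). These matches describe letters and were not tested as binding sites.

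The transcripts of the paired adult genes are also nearly alike. Hba-a1 and Hba-a2 share 538 aligned bases with 1 mismatch, C381T, counted from the first base of the coding sequence, with the base of Hba-a1 first. It lies in exon 3, and it is shown in capitals within 41 bases of coding sequence because it is the one base of the shared stretch by which a read can be assigned.
Hba-a1 (chr11:32284323-32284363, GRCm38, + strand): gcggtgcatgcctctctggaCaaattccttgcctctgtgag
Hba-a2 (chr11:32297140-32297180, GRCm38, + strand): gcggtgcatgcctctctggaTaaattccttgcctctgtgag
The annotated transcript of Hba-a1 has a further 161 bases at its 5′ end. Only 13.1% of the 50-base stretches of the Hba-a2 transcript and 32.5% of those of Hba-a1 occur in no other gene. The shares were 34.2% for Hbb-bs and 41.7% for Hbb-bt, whose transcripts are 93.9% identical over 607 bases. For the 3 embryonic genes every 50-base stretch was unique. How reads shared between copies were counted is not given in the sources used here. A level of an adult gene, a balance within an adult pair and any share that holds adult genes depend on that rule.

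The libraries held 10831350 to 14765880 counts. Levels are given as CPM (counts scaled to a common library size by TMM). Mir483 had 10 to 22 counts in each WT library and 0 in all Mir483Pat-KO libraries. The defining markers of hepatocytes (Alb, at 101300 CPM or more) and of erythroid cells (Slc4a1, at 2219 CPM or more) were present in every library. The labels carry identification numbers that fall into 2 ranges. The lower range holds WT replicates 1 to 4 with Mir483Pat-KO replicates 1 and 2. The upper range holds WT replicate 5 with Mir483Pat-KO replicates 3 to 5.

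Per kilobase of transcript, adult globins stood far above embryonic globins in every library. In WT livers, Hbb-bs was at 12625 ± 1236 CPM per kilobase (SD, n = 5), Hba-a1 at 4072 ± 761, Hbb-bt at 3103 ± 460 and Hba-a2 at 929 ± 137. The embryonic genes followed, with Hbb-y at 4.19 ± 1.27, Hbb-bh1 at 2.99 ± 1.13 and Hba-x at 2.42 ± 0.831 CPM per kilobase. The ranges of Hba-a1 and Hbb-bt overlapped in WT, as did those of the embryonic genes with each other, so those neighbours in the order did not separate beyond their spread. By count, Hbb-bs ranked between 6 and 14 among all genes in the 10 libraries, and the embryonic genes between 10483 and 13408.

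**Figure D1:**
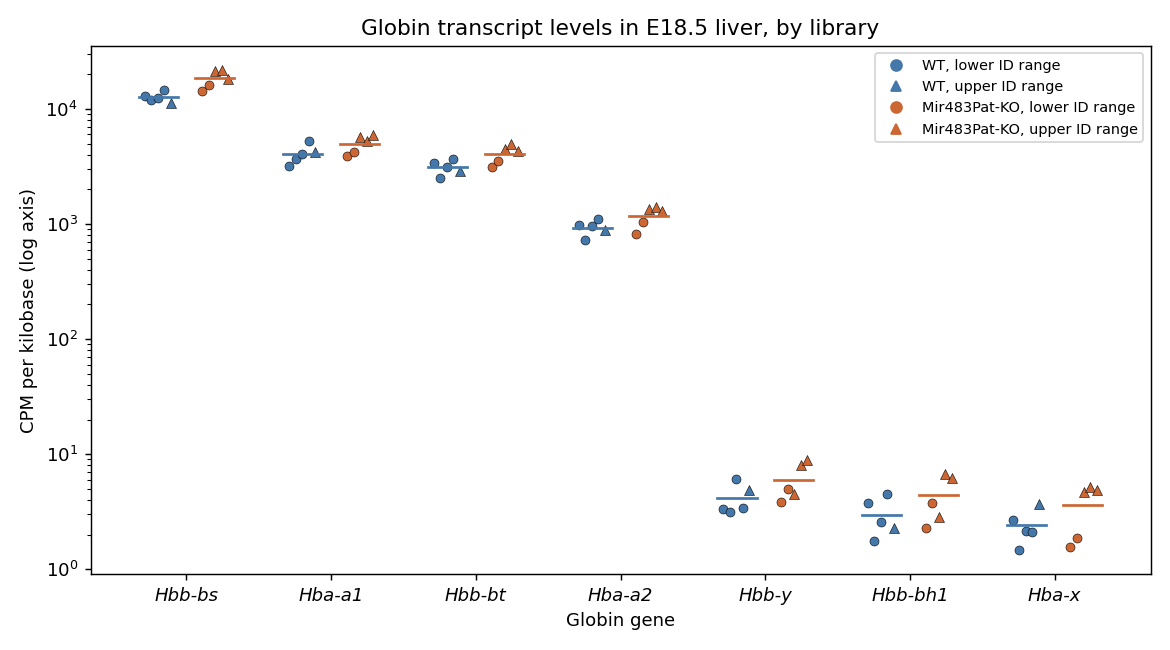
Level of each globin gene in every library, in CPM per kilobase of transcript on a log axis. Points are libraries, bars are group means, and triangles mark libraries of the upper identification number (ID) range. The 4 adult genes lie at 727 CPM per kilobase or more and the 3 embryonic genes at 8.84 or less.

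The comparison of Mir483Pat-KO with WT asks whether loss of the paternally inherited Mir483 allele is accompanied by a change in liver transcripts. Of the 7 globin genes, 1, the adult beta globin Hbb-bs, passed the test in edgeR (adjusted p under 0.05 over 14098 genes) and was higher in Mir483Pat-KO. Over all genes tested, 2.43% passed in that direction. With a fold change over 1.5 also required, 0 of the 7 were called, against 0.355% of all genes. The fitted fold change was above 0 for all 7 genes, and for 50.9% of all genes tested. The 7 genes share cells and libraries and so are not independent of each other. No globin gene had all Mir483Pat-KO libraries above all WT libraries, which 3.34% of the tested genes had. All 7 passed the filter on low counts.

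Hbb-bs, the major adult beta globin here, was at 8099, 7523, 7849, 9125 and 7046 CPM in the WT livers, replicates 1 to 5. In the Mir483Pat-KO livers it was at 9039, 10114, 13422, 13683 and 11446 CPM. The groups overlapped by 1 library on each side, since WT replicate 4 lay just above Mir483Pat-KO replicate 1. The means were 7928 ± 776 and 11541 ± 2027 CPM (SD, n = 5 each), a log2 fold change of 0.54 (SE 0.11, adjusted p = 0.012 in edgeR). In bulk liver, more red cell precursors and more globin RNA in each cell cannot be told apart.

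The 3 highest Hbb-bs values came from the upper range, from Mir483Pat-KO replicates 3 to 5. With the range as a covariate, the log2 fold change of Hbb-bs was 0.45 (SE 0.12, adjusted p = 0.0315 in edgeR). Within the lower range alone, with 4 WT and 2 Mir483Pat-KO libraries, it was 0.23 (SE 0.096) and the call was lost (adjusted p = 0.320). The fold change was smaller while its standard error was no larger than with all libraries. Of all genes, that fit called 3 of 14494 higher (0.0207%) and 20 lower (0.138%), against 342 and 389 with all libraries. In that range WT livers held 7523 to 9125 CPM and Mir483Pat-KO livers 9039 and 10114 CPM. The upper range holds 1 WT library, at 7046 CPM, against 11446 to 13683 CPM in the 3 Mir483Pat-KO libraries.

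Hbb-bt, the minor adult beta globin, was at 2389, 1749, 2180, 2579 and 2009 CPM in WT replicates 1 to 5. The Mir483Pat-KO values were 2208, 2477, 3160, 3497 and 3046 CPM. The 3 upper-range Mir483Pat-KO libraries lay above all WT libraries, and the other two lay within the WT range. The group means were 2181 ± 323 and 2878 ± 525 CPM, and the log2 fold change of 0.40 (SE 0.12) did not pass (adjusted p = 0.0690 in edgeR). It was 0.29 (SE 0.13) with the range as a covariate and 0.07 (SE 0.13) within the lower range. This call depends on the fit, since Hbb-bt passed with DESeq2 (adjusted p = 0.0261) and in edgeR without Mir483Pat-KO replicate 1 (adjusted p = 0.0260).

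The adult alpha globins gave smaller fitted differences. Hba-a1 was at 2248, 2551, 2823, 3670 and 2939 CPM in WT replicates 1 to 5 and at 2711, 2930, 3986, 3652 and 4166 CPM in Mir483Pat-KO. The groups overlapped widely, with 2 Mir483Pat-KO libraries above all WT libraries. The log2 fold change was 0.29 (SE 0.13, adjusted p = 0.205 in edgeR). Hba-a2, the less abundant copy, was at 544, 403, 534, 607 and 486.6 CPM in WT and at 457, 578, 748, 774 and 719 CPM in Mir483Pat-KO. Here the 3 upper-range Mir483Pat-KO libraries again lay above every WT library, and Mir483Pat-KO replicates 1 and 2 lay inside the WT range. The log2 fold change of Hba-a2 was 0.35 (SE 0.13, adjusted p = 0.133), and it passed in edgeR without Mir483Pat-KO replicate 1 (adjusted p = 0.0298) and with GC content and length offsets (adjusted p = 0.0459). With the range as a covariate, the log2 fold change was 0.15 (SE 0.13) for Hba-a1 and 0.21 (SE 0.13) for Hba-a2. Within the lower range, the log2 fold changes turned to -0.0048 (SE 0.155) for Hba-a1 and -0.0145 (SE 0.145) for Hba-a2.

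The embryonic globins rested on few reads, 13 to 85 counts per library and gene. Hbb-y, the embryonic epsilon-type chain, had 24, 24, 54, 28 and 44 counts in WT replicates 1 to 5 and 31, 40, 37, 56 and 85 counts in Mir483Pat-KO. Mir483Pat-KO replicates 4 and 5 exceeded all WT libraries in CPM, and the other values were interleaved. The log2 fold change was 0.51 (SE 0.26, adjusted p = 0.255 in edgeR). It was 0.29 (SE 0.26) with the range as a covariate and 0.31 (SE 0.26) without Mir483Pat-KO replicate 5. Within the lower range alone it was 0.12 (SE 0.32).

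Hbb-bh1, the other embryonic beta-like chain, had 26, 13, 22, 36 and 20 counts in WT and 18, 29, 23, 46 and 58 in Mir483Pat-KO. Its groups overlapped too, and the log2 fold change was 0.56 (SE 0.32, adjusted p = 0.320). It was 0.39 (SE 0.36) with the range as a covariate and 0.35 (SE 0.32) without Mir483Pat-KO replicate 4. Within the lower range alone it turned to -0.067 (SE 0.40). Hba-x, the embryonic zeta chain, had 24, 14, 24, 22 and 42 counts in WT and 16, 19, 49, 46 and 59 in Mir483Pat-KO. Replicates 3 to 5 of Mir483Pat-KO, the upper-range libraries, were above every WT library in CPM. The WT library of the upper range, replicate 5, was the highest of the WT libraries. The log2 fold change of Hba-x was 0.58 (SE 0.33, adjusted p = 0.320), and with the range as a covariate it was 0.036 (SE 0.232). Within the lower range alone it turned to -0.28 (SE 0.35). The counting error alone amounted to 0.222 to 0.267 on the log2 scale per library, against an SD within groups of 0.475 to 0.686.

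**Figure D2:**
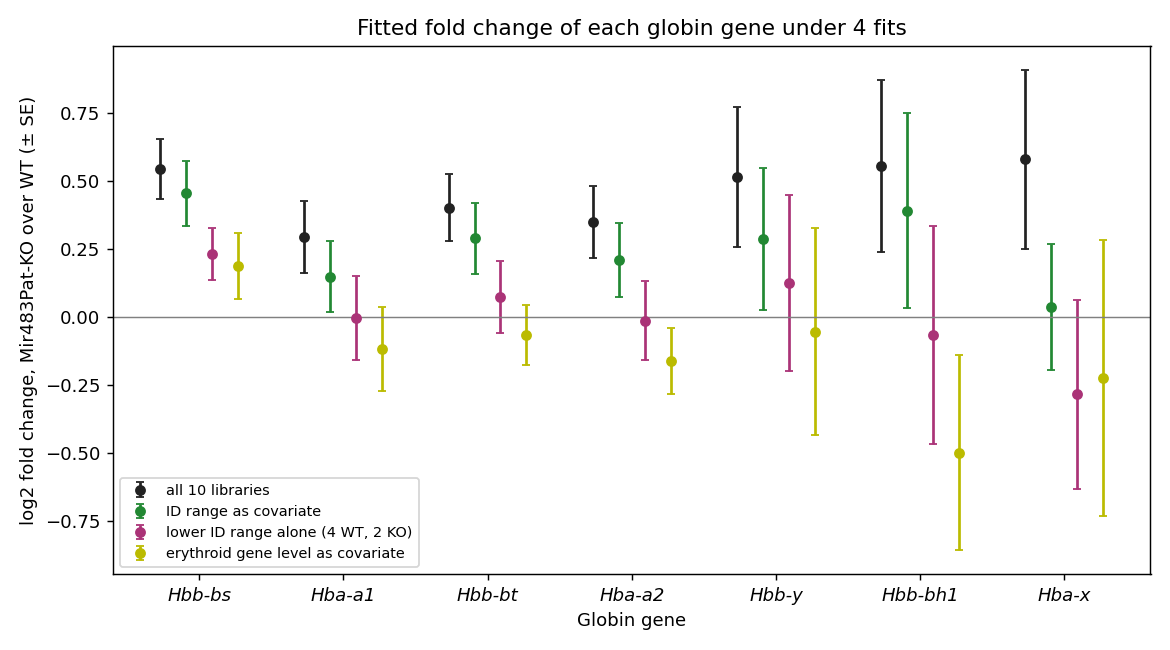
Log2 fold change of each globin gene, Mir483Pat-KO over WT, with its standard error, under 4 edgeR fits. All 10 libraries (black) give values above 0 for the 7 genes, the fit within the lower ID range (purple) gives values from -0.28 for Hba-x to 0.23 for Hbb-bs, and the fit with the level of other erythroid genes as a covariate (yellow) leaves Hbb-bs alone above 0.

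The balance between the genes was compared as 5 shares per kilobase, with two-sided exact permutation tests over the 10 libraries and adjustment over the 5. The smallest p that 5 against 5 libraries allow is 0.00794. None of the 5 shares passed, and the groups overlapped in each.

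Alpha-like transcripts made up 20.5, 23.2, 24.3, 25.9 and 26.5% of globin transcripts in WT replicates 1 to 5. The Mir483Pat-KO shares were 21.2, 21.1, 21.4, 19.8 and 24.3%. Mir483Pat-KO replicates 1 to 4 were lower than WT replicates 2 to 5, and WT replicate 1 fell among them. The means were 24.1 ± 2.39% and 21.6 ± 1.67% (SD, n = 5 each), with an exact permutation p = 0.111 and an adjusted p = 0.278. Without WT replicate 1 the difference went from -2.51 to -3.41 percentage points (exact permutation p = 0.0476, unadjusted). Leaving out any other library gave exact permutation p-values of 0.0635 to 0.222.

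Hbb-bs made up 79.1, 82.8, 80.1, 79.8 and 79.7% of adult beta transcripts in WT replicates 1 to 5, and 82.1, 82.1, 82.6, 81.4 and 80.8% in Mir483Pat-KO. All Mir483Pat-KO values were above 4 of the 5 WT values, and WT replicate 2 was the highest of all 10. The means were 80.3 ± 1.43% and 81.8 ± 0.704% (exact permutation p = 0.0873, adjusted p = 0.278). Leaving out WT replicate 2 raised the difference from 1.47 to 2.09 percentage points (exact permutation p = 0.0159, unadjusted, the smallest that 4 against 5 libraries allow). Leaving out any other library gave exact permutation p-values of 0.0794 to 0.175.

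Hba-a1 made up 81.2 ± 2.77% of adult alpha transcripts in WT and 80.9 ± 1.46% in Mir483Pat-KO (exact permutation p = 0.802, adjusted p = 0.929). This share depends on how reads that match both genes were counted. Per unique 200-base fragment position in place of per kilobase, a scale added after seeing the data, the means were 63.2 ± 4.10% and 62.6 ± 2.21%.

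Embryonic chains were a trace in both groups. Hbb-y and Hbb-bh1 together made up 0.0456 ± 0.00815% of beta-like transcripts in WT and 0.0460 ± 0.0154% in Mir483Pat-KO (exact permutation p = 0.929, adjusted p = 0.929). The lowest value, 0.0284%, and the highest, 0.0667%, both belonged to Mir483Pat-KO libraries, replicates 3 and 5. Hba-x made up 0.0491 ± 0.0180% of alpha-like transcripts in WT and 0.0561 ± 0.0203% in Mir483Pat-KO (exact permutation p = 0.611, adjusted p = 0.929). For Hba-x, the 4 libraries of the upper range lay between 0.0664 and 0.0782%, and the 6 of the lower range between 0.0331 and 0.0633%, whatever the genotype.

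**Figure D3:**
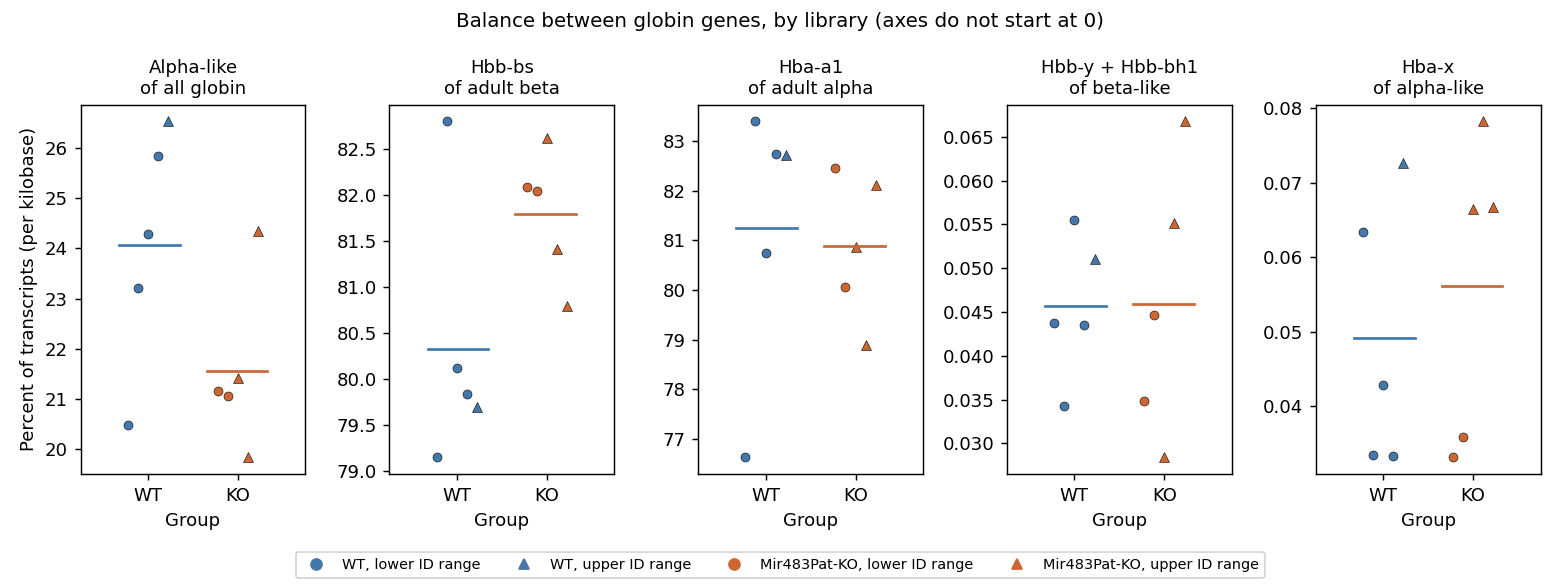
Share of transcripts, in percent per kilobase, for 5 balances between globin genes. Points are libraries, bars are group means, triangles mark the upper ID range, and the axes do not start at 0. The groups overlap in each panel, and Hba-x is higher in the 4 upper-range libraries than in the 6 others.

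Summed over the 7 genes, globins took 1.33 ± 0.168% of all counts in WT livers and 1.88 ± 0.342% in Mir483Pat-KO livers. The WT shares were 1.31, 1.19, 1.32, 1.61 and 1.22%, and the Mir483Pat-KO shares 1.42, 1.63, 2.14, 2.21 and 1.995%. WT replicate 4 lay above Mir483Pat-KO replicate 1, and otherwise the groups were apart. The ratio of the means was 1.41 over all libraries and 1.12 within the lower range, given as a description.

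Globins were accompanied by other genes of red cell precursors. Over 60 erythroid genes (transcription factors, heme synthesis, membrane, and red cell enzymes and maturation), the summed level ranged from 16090 to 19171 CPM in WT livers and from 18348 to 22094 CPM in the knockouts. The summed CPM of these genes was 1.17 times as high in Mir483Pat-KO as in WT, and the summed globin CPM 1.38 times. Within the lower range these ratios were 1.044 and 1.112. Per count of these erythroid genes, globin counts were 0.773 ± 0.0375 in WT and 0.910 ± 0.0974 in Mir483Pat-KO, a ratio of 1.18 over all libraries and of 1.066 within the lower range. Here too 4 of the 5 Mir483Pat-KO libraries lay above all WT libraries. The size of the ratio depended on the list. Over all libraries it was 1.15 per count of the membrane genes alone and 1.17 per count of the heme synthesis genes. Per count of the transcription factors it was 1.28.

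Hbb-bs alone, a ratio added after seeing the data, was at 0.429 to 0.476 counts per count of the erythroid genes in WT and at 0.493 to 0.637 in Mir483Pat-KO. The groups did not overlap on this ratio, which 0.184% of the tested genes had in the same direction. With the mean level of the membrane and heme synthesis genes as a covariate in edgeR, Hbb-bs had a log2 fold change of 0.19 (SE 0.12) and no longer passed (adjusted p = 0.534). The estimate moved from 0.54 while its standard error stayed near that without the covariate, 0.11. Of all genes, this fit called 0 of 14098 higher (0%) and 3 lower (0.0213%). The other 6 globin genes then fell below 0, from -0.05 for Hbb-y to -0.50 for Hbb-bh1. The part of erythroid content in the difference of Hbb-bs cannot be told apart from that of genotype.

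**Figure D4:**
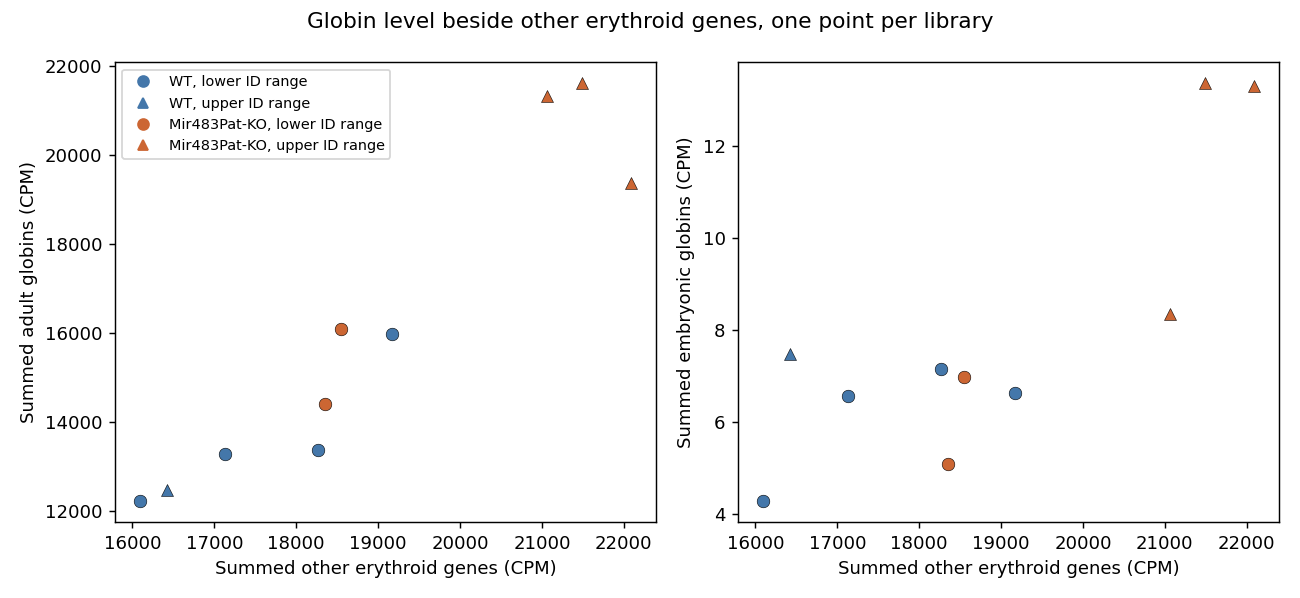
Summed CPM of the 4 adult globins (left) and of the 3 embryonic globins (right) against the summed CPM of 60 other erythroid genes, with 1 point per library. The 3 upper-range Mir483Pat-KO libraries stand at 21059 CPM of erythroid genes or more, above all others, and hold the highest adult globin levels, 19378 to 21605 CPM.

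Genes of other roles in the red cell were counted in the same test, in which 2.43% of all genes were higher in Mir483Pat-KO and 2.76% lower. No difference between lists was tested. The calls on these lists come from all 10 libraries, and the lower range alone called 3 of 14494 genes higher and 20 lower. Of 17 membrane and skeleton genes of the red cell, 7 passed and were higher in Mir483Pat-KO, 0 were lower, and the median log2 fold change was 0.204, against 0.0042 over all tested genes. Their summed CPM was 1.196 times as high in Mir483Pat-KO as in WT over all libraries, and 1.045 times within the lower range. Tropomodulin 1 (Tmod1), which caps actin filaments, and Xk, a membrane protein that carries the Kx antigen, rose by log2 fold changes of 0.51 and 0.50 (adjusted p = 0.0103 for Tmod1 and 0.0198 for Xk in edgeR).

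Of 10 heme synthesis genes, 2 passed, both higher, with a median of 0.182. They were Fech, the enzyme that inserts iron into protoporphyrin (log2 fold change 0.34, adjusted p = 0.0342), and Cpox, a coproporphyrinogen oxidase (0.24, adjusted p = 0.0448). Of 20 genes for red cell enzymes and maturation, 3 rose, namely Xpo7, a nuclear exporter (0.51), Bnip3l, needed for loss of mitochondria (0.36), and Bpgm, which makes 2,3-bisphosphoglycerate (0.29), with a list median of 0.158. Among 9 iron uptake genes 1 passed, the mitochondrial iron importer Slc25a37 (0.34, adjusted p = 0.0298), and the median was 0.043.

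Of 13 erythroid transcription factors, which drive the globin genes among others, 3 had an unadjusted p under 0.05 and 1 passed, Lmo2, a bridging subunit of the GATA1 and TAL1 complex (log2 fold change 0.30, adjusted p = 0.0365 in edgeR), with a list median of 0.074. Gata1 had 66.4 ± 7.14 CPM in WT livers, against 68.6 ± 6.66 CPM in the knockouts. Klf1, which binds the CACCC box of the adult beta promoter, was at 92.8 ± 10.8 and 85.5 ± 11.6 CPM, and neither passed. Of 19 genes known from the switch between embryonic, fetal and adult globins, 3 were higher. They were Mbd2, which reads methylated DNA (0.27, adjusted p = 0.0259), Sox6, a repressor of embryonic globin genes (0.32, adjusted p = 0.0277), and Lin28b, an RNA-binding protein of fetal blood cells (0.50, adjusted p = 0.0333). Bcl11a, the best known repressor of embryonic and fetal globins, had a log2 fold change of 0.19 (SE 0.087, adjusted p = 0.202). Zbtb7a of the same list went the other way, at -0.20 (SE 0.074, adjusted p = 0.119 in edgeR). Of the 19 genes 14 were above 0, and the list median was 0.033.

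Other genes of the globin fold and of the alpha locus were read in the same way. Of 8 other globin-fold genes 4 had enough counts to be tested, and 1 passed. That was the theta-like Hbq1b of the alpha cluster, which rose from a mean of 14.9 CPM in WT livers to 20.7 in the knockouts (log2 fold change 0.48, adjusted p = 0.0497). Its near copy Hbq1a was at 0.780 ± 0.322 CPM in WT livers and 0.824 ± 0.172 in the knockouts. Adgb, androglobin, did not pass (0.47, adjusted p = 0.0543). The pseudogene-like Hbb-bh2 and Hbb-bh0 of the beta cluster had 3 counts and 1 count over all 10 libraries. Of 4 tested neighbours of the alpha cluster on chromosome 11, 0 passed in edgeR and 1, Rhbdf1, had an unadjusted p under 0.05, with log2 fold changes from -0.325 for Rhbdf1 to 0.167 for Snrnp25. A further 2 genes of that list, Luc7l and Polr3k, lie on chromosomes 17 and 2 in the mouse and were not counted as neighbours.

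Of 9 genes that clear free haemoglobin and heme, 2 were lower, where 2.76% of all genes were, namely haptoglobin (Hp), the plasma protein that binds free haemoglobin, and Lrp1, the receptor for hemopexin complexes. On the log2 scale Hp fell by 0.47 (adjusted p = 0.0377 in edgeR) and Lrp1 fell by 0.43 (adjusted p = 0.0310). Both are also made by hepatocytes.

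Markers of other liver cells were counted beside these values and read against the same shares of all genes, 2.43% higher and 2.76% lower. Of 8 hepatocyte genes 1 passed and was lower, Apoa1 (fell by 0.30, adjusted p = 0.0262), with a list median of -0.127 and a summed level of 244800 to 273000 CPM in WT livers and of 227500 to 257900 CPM in the knockouts. Of 8 macrophage genes 2 were lower, Clec4f and C1qa, with a median of -0.023. In the megakaryocyte list 1 of 7 tested was lower, Vwf, with a median of -0.193, and in the B-lymphoid list 1 of 8 was higher, Rag1, with a median of 0.069. The myeloid and endothelial lists had 0 of 8 each in edgeR, with 1 and 2 respectively at an unadjusted p under 0.05 and medians of 0.012 and -0.14. The part of cell makeup in the globin differences was not tested.

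The genes whose level followed the summed adult globins most closely were found by the SD, over the 10 libraries, of the log2 ratio of each gene to the globin sum, among 9713 genes. That SD was lowest for Tmod1 at 0.0658, followed by Cir1 at 0.0851, Cdr2 at 0.0900, Cenpu at 0.0922 and March3 at 0.101, where the median gene had 0.342 and the globin sum itself varied by 0.310. For the summed embryonic globins the closest genes were Nme4 at 0.273, Jun at 0.294 and Gsn at 0.296, with a median of 0.544, so no gene followed these low counts as closely. These are descriptions over libraries that share depth scaling and erythroid content.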

How the data were processed

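The deposited table holds whole-number counts per gene, not normalised. Per the study's methods, the authors made stranded polyA libraries (TruSeq), aligned reads with STAR 2.5.0a to GRCm38 (Ensembl 100) and took gene-level counts from it. The strand setting, read trimming and the treatment of reads matching several genes are not given in the sources used here. The members and all gene lists were chosen with earlier results of these data known. Symbols were matched to 55141 of 55401 identifiers. Transcript sequences and positions came from GENCODE M21 (GRCm38), promoters from RefSeq.

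Counts were tested with edgeR 4.0.16 (quasi-likelihood, TMM, genes kept by its low-count filter, no covariates) in R 4.3.3 over all 10 libraries, with Benjamini-Hochberg adjustment over 14098 genes. Passed means adjusted p under 0.05. CPM used TMM-scaled totals, and shares used CPM per kilobase of the longest coding transcript. On simulated counts with 200 genes changed by a fold of 2 among 13991, the fit recovered 86% and 6% of its calls were false. No 2 libraries of a group agreed to within counting error. Shares were tested with exact permutation tests (scipy). Genes named are the members, up to 3 genes per list with the smallest p, and the 5 and 3 genes closest to the summed adult and embryonic globins. Of the genes so chosen, 2 are not reported here. Gata1, Klf1, Bcl11a, Zbtb7a, Hbq1a, Snrnp25, Hbb-bh2 and Hbb-bh0 were named after their values were seen. DESeq2 1.42.0, limma 3.58.1 and other settings were tried as alternatives. Total counts of 10831350 to 14765880 leave the embryonic genes with 13 to 85 counts per library.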

Additional observations from a re-analysis of the deposited data

Results flagged for a closer look

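In the share of Hbb-bs among adult beta globin transcripts, WT replicate 2 stood apart from the rest of its group at 82.8%, where the other 4 WT libraries lay between 79.15 and 80.12%. The gap was 0.733 of the range of the group. This was the 1 such library in 28 groups examined (7 genes, 5 shares and 2 summed levels in 2 groups each), and chance flags about 1 in 20 groups.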

How the results depend on the processing

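The number of globin genes past the test was 1 in the reported fit. It was 2 with DESeq2 (Hbb-bs and Hbb-bt) and with GC content and length offsets (Hba-a2 and Hbb-bs), 3 without the low-count filter, and 1 to 3 when each library was left out in turn (3 without Mir483Pat-KO replicate 1, 1 without any other). It was 0 with a fold change over 1.5 also required, 0 within the lower identification number range, and 0 with erythroid level as a covariate. In these last 2 fits the log2 fold change of Hbb-bs was 0.23 (SE 0.096) and 0.19 (SE 0.12), against 0.54 (SE 0.11) as reported. Over all genes they called 3 higher and 20 lower of 14494 within the lower range and 0 higher and 3 lower of 14098 with the covariate, against 342 and 389 as reported. Hbb-bs passed in all 10 fits that left out a library, with log2 fold changes of 0.46 to 0.61. With replicate number as a block 3 genes passed (Hba-a1, Hbb-bs and Hbb-bt). Over all genes that fit called 742 higher and 596 lower. The labels do not say whether the numbers pair the samples. Same-numbered deviations correlated at 0.0871 on average, over 0.1 in 2 of 5 pairs, and deviations of other numbers at -0.0217. These values do not settle the pairing. Sign flips of the 5 numbered pairs cannot give a p under 0.0625, so no share could pass (alpha share exact p = 0.125).

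Within the lower range the log2 fold change turned to -0.0048 for Hba-a1, -0.0145 for Hba-a2, -0.28 for Hba-x and -0.067 for Hbb-bh1, and the difference in shares to -0.0045 percentage points for embryonic beta-like, -0.0087 for Hba-x and 0.386 for Hba-a1. The ratio of summed globin fell to 1.12. With the erythroid covariate the log2 fold change was -0.12 for Hba-a1, -0.16 for Hba-a2, -0.23 for Hba-x, -0.068 for Hbb-bt, -0.50 for Hbb-bh1 and -0.054 for Hbb-y. The cause was not tested.

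Leaving out each library gave differences of -3.41 to -1.90 percentage points for the alpha share, 1.18 to 2.09 for the Hbb-bs share, -0.0049 to 0.0047 for the embryonic beta-like share, -1.52 to 0.172 for the Hba-a1 share and 0.00144 to 0.0129 for the Hba-x share, so the embryonic beta-like and Hba-a1 shares changed sign. The Hba-x difference, 0.00697 over all libraries, was lowest with Mir483Pat-KO replicate 4 left out and highest with WT replicate 5 left out. The embryonic genes rest on 13 to 85 counts per library, with a counting error (0.222 to 0.267 on the log2 scale) below their spread within groups (0.475 to 0.686).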

Other observations

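Among the 6 ratios between adult globin genes, the tightest over the 10 libraries crossed the clusters. The log2 ratio of Hba-a2 to Hbb-bt had an SD of 0.070, against 0.124 for Hbb-bs to Hbb-bt, 0.162 for Hba-a2 to Hbb-bs, 0.191 for Hba-a1 to Hba-a2, 0.210 for Hba-a1 to Hbb-bt and 0.227 for Hba-a1 to Hbb-bs. Each of these genes alone varied with an SD of 0.296 to 0.340 on the log2 scale. The ratios with SDs of 0.191 to 0.227 all hold Hba-a1. Every one of these levels depends on how reads shared between copies were counted. These pairs were singled out after their values were seen, and no test was made.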
